A study of Homo sapiens with 8 samples.

Results

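The genes described here are 47 members of the TGF-beta and BMP pathway, among the 20294 genes of a count table made from HSC-5, a human cutaneous squamous cell carcinoma line. The members were taken by gene symbol, and all 47 were in the table. They comprise 10 ligands, 5 latent binding proteins and processing proteases, 10 receptors, 6 antagonists, 8 SMADs, 4 ligases and corepressors, and 4 ID genes. RNA was sequenced from 8 libraries in 3 groups: 3 libraries of cells that received the guide RNA sgEZH2-1, 3 that received the guide RNA sgEZH2-2, and 2 that received an empty vector (Control). The cells of all 3 groups carried a stable lentiviral Cas9, and G418 was used to select cells that held the guide. The sources used here do not say whether the empty-vector cells were selected in the same way. EZH2 encodes the enzyme of PRC2, a Polycomb complex that places the repressive H3K27 methyl mark on chromatin. The labels name neither clones nor separate cultures, so the p-values measure the spread between these libraries, which may be technical. The submitters left out 1 further control library for not clustering with the others. That library was not analysed here, so the 2 controls may look closer to each other than 3 would have.

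In this pathway, secreted ligands of the TGF-beta, activin and BMP families bind pairs of type I and type II receptor kinases, which phosphorylate receptor SMADs. Receptor SMADs join SMAD4, enter the nucleus and act on target genes such as the ID genes. Latent binding proteins hold TGF-beta in the matrix, and secreted antagonists such as follistatin and chordin bind activins and BMPs before they reach a receptor. In squamous epithelium TGF-beta restrains growth of keratinocytes, and in advanced carcinoma it is also known for promoting invasion. PRC2 is often found in other cell types at promoters rich in CG dinucleotides of developmental genes, among them several genes of this pathway.

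The sequences upstream of CHRD, INHBB and FSTL3 are shown as examples, picked from members called higher with at least 1 guide and with promoter regions rich in CG. In windows of 300 bases CHRD had 36 CG dinucleotides, INHBB 58 and FSTL3 44. Some other members called higher were as rich (ACVR1B 56, SMAD9 50, BAMBI 47), and so were some called in no comparison (SKIL 52, SMURF1 50). The sequences are RefSeq promoter windows of build GRCh38.p14, plus strand, 5′ to 3′, ended before the first annotated transcript start, and the capitals mark each CG dinucleotide. CHRD is at chr3:184379804-184380053, INHBB at chr2:120345886-120346135 and FSTL3 at chr19:676142-676364. The run of 250 bases before CHRD held 27 CG dinucleotides, that of 250 bases before INHBB held 46, and that of 223 bases before FSTL3 held 31.
CHRD: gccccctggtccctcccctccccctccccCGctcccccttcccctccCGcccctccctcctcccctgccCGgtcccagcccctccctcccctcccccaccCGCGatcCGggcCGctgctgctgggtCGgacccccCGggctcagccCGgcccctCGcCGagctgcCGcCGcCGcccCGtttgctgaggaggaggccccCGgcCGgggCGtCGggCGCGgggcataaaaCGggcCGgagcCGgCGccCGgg
INHBB: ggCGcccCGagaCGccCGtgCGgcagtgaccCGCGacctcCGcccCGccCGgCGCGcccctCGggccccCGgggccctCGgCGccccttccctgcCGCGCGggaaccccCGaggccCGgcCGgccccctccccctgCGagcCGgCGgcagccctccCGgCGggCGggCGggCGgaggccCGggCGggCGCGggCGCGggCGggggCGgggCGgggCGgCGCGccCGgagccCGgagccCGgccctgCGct
FSTL3: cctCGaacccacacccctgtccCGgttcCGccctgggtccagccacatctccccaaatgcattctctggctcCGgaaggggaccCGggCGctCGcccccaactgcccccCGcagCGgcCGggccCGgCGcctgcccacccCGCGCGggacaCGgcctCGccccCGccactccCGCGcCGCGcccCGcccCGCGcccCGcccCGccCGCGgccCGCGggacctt

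Depth was 12.6 M to 15.5 M counts per library. Levels are in CPM, in which counts are scaled by trimmed mean of M values so that libraries of unequal depth can be compared. EZH2 itself (chromosome 7, 148807383 to 148884321, minus strand, GRCh38) was at 56.4, 56.3 and 48.0 CPM with sgEZH2-1, at 73.9, 67.6 and 65.1 CPM with sgEZH2-2, and at 82.7 and 84.1 CPM in Control. All 6 guide libraries were below both controls, and the sgEZH2-1 libraries were below the sgEZH2-2 libraries. The log2 fold change against Control was -0.64 (SE 0.08, adjusted p = 5.29e-04) with sgEZH2-1 and -0.28 (SE 0.08, adjusted p = 0.0699) with sgEZH2-2. Reads of edited transcripts count in these levels, which therefore do not measure the protein. Correlations of log2 CPM ran from 0.985 to 0.990 over the 7 pairs of libraries within a group and from 0.967 to 0.984 over the 21 pairs between groups (Pearson, across the genes tested, which are not independent replicates). The 10 keratinocyte markers summed to 3391 to 3770 CPM with sgEZH2-1, 3237 to 3308 CPM with sgEZH2-2 and 3830 to 3852 CPM in Control, with KRT5 at 1551 to 2106 CPM over all libraries and KRT14 at 1.60 CPM or less. TP63, the transcription factor of basal keratinocytes, was at 104 to 119 CPM with sgEZH2-1, 180 to 195 CPM with sgEZH2-2 and 208 to 233 CPM in Control. Of these markers, KRT6A, KRT17 and CDH1 were called higher and TP63 and TRIM29 lower with sgEZH2-1, while KRT5, DSG3 and CDH1 were called lower with sgEZH2-2. The summed level of the 9 fibroblast markers was 5.02 to 8.96 CPM with sgEZH2-1, 11.0 to 14.1 CPM with sgEZH2-2 and 6.13 to 7.24 CPM in Control, with COL1A2 at 0 in every library and 8 of the markers under 1 CPM throughout. The remaining marker, COL1A1, was at 4.25 to 8.33 CPM with sgEZH2-1, 10.8 to 13.8 CPM with sgEZH2-2 and 5.93 to 7.24 CPM in Control. COL1A1 was called higher with sgEZH2-2 against Control (log2 fold change 0.88, SE 0.23, adjusted p = 0.0437). Between the guides it was called lower with sgEZH2-1 (-0.89, SE 0.21, adjusted p = 0.0133). The 6 endothelial markers summed to 76.6 to 81.7 CPM with sgEZH2-1, 143 to 160 CPM with sgEZH2-2 and 177 to 184 CPM in Control. CDH5 made up 74.6 to 79.2 CPM of that sum with sgEZH2-1, 139 to 156 CPM with sgEZH2-2 and 173 to 180 CPM in Control, and KDR was at 0 in every library. The 6 leukocyte markers summed to 11.6 to 18.5 CPM over all libraries, of which CD68 made up 9.36 to 15.1 CPM, with CD3E at 0. The 6 melanocyte markers summed to 27.8 to 33.1 CPM, of which MITF made up 24.5 to 30.6 CPM, with TYR, DCT and SOX10 at 0. The part of these markers in the results below was not tested.

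With sgEZH2-1, more pathway members rose than fell, among them ligands, receptors and antagonists, and with sgEZH2-2 fewer members passed the test. The members called (an adjusted p of at most 0.05 in edgeR's quasi-likelihood F test, adjusted over all 13124 genes tested) numbered 13 higher and 2 lower with sgEZH2-1 against Control, of the 43 members tested. That is 30.2% and 4.65% of the members, beside 11.3% of all genes tested called higher and 9.51% called lower. With sgEZH2-2 against Control, 6 members were called higher and 2 lower, or 14.0% and 4.65%, beside 6.18% and 2.50% of all genes tested. With all 6 guide libraries set against both controls in a fit that counts a difference between guides as spread, 3 members were called higher (6.98%) and 0 lower, beside 3.76% and 0.594% of all genes. DESeq2 also called 0 members lower there, and 0 had a negative value with an unadjusted p under 0.05 in edgeR. The median log2 fold change of the tested members was 0.23, 0.14 and 0.16 in these 3 comparisons, in that order, against medians of -0.01, 0.00 and -0.00 over all genes tested. These comparisons share the same 2 controls, so their values are set side by side and not as independent evidence of each other.

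Some of those counts depend on the filter for low counts. BMP6, INHBA, NOG and GREM1 did not pass it, and 3 tested members, CHRD, SMAD9 and ID2, had both controls under the filter level and passed through the guide libraries. Among the 40 members with a control above that level, 10 were called higher and 2 lower with sgEZH2-1, beside 9.81% and 9.87% of the 12640 genes that met the same condition. With sgEZH2-2 the counts were 4 higher and 2 lower of 40, beside 4.91% and 2.59% of those genes. For both guides together the counts were 2 higher and 0 lower of 40, beside 2.60% and 0.617% of those genes. CHRD, with 0 counts in both controls, was the jointly called member that did not meet the condition. Between the guides the counts were 10 higher and 5 lower of 40, beside 10.4% and 11.8% of those genes. In each of the fits below with 1 library left out, fewer genes were called over all genes tested as well. The member counts of those fits therefore do not by themselves show that members were less stable than other genes. Without the first control, 10 members were called higher and 0 lower with sgEZH2-1. The count called lower with sgEZH2-1 was also 0 without the second sgEZH2-1 library and 1 without the second control. Without the second control 3 members were called higher with sgEZH2-2, and 1 was called lower with sgEZH2-2 when any library but the first of sgEZH2-1 was left out. With both guides together, 0 members were called higher without the first control and 1 without the second.

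**Figure D1:**
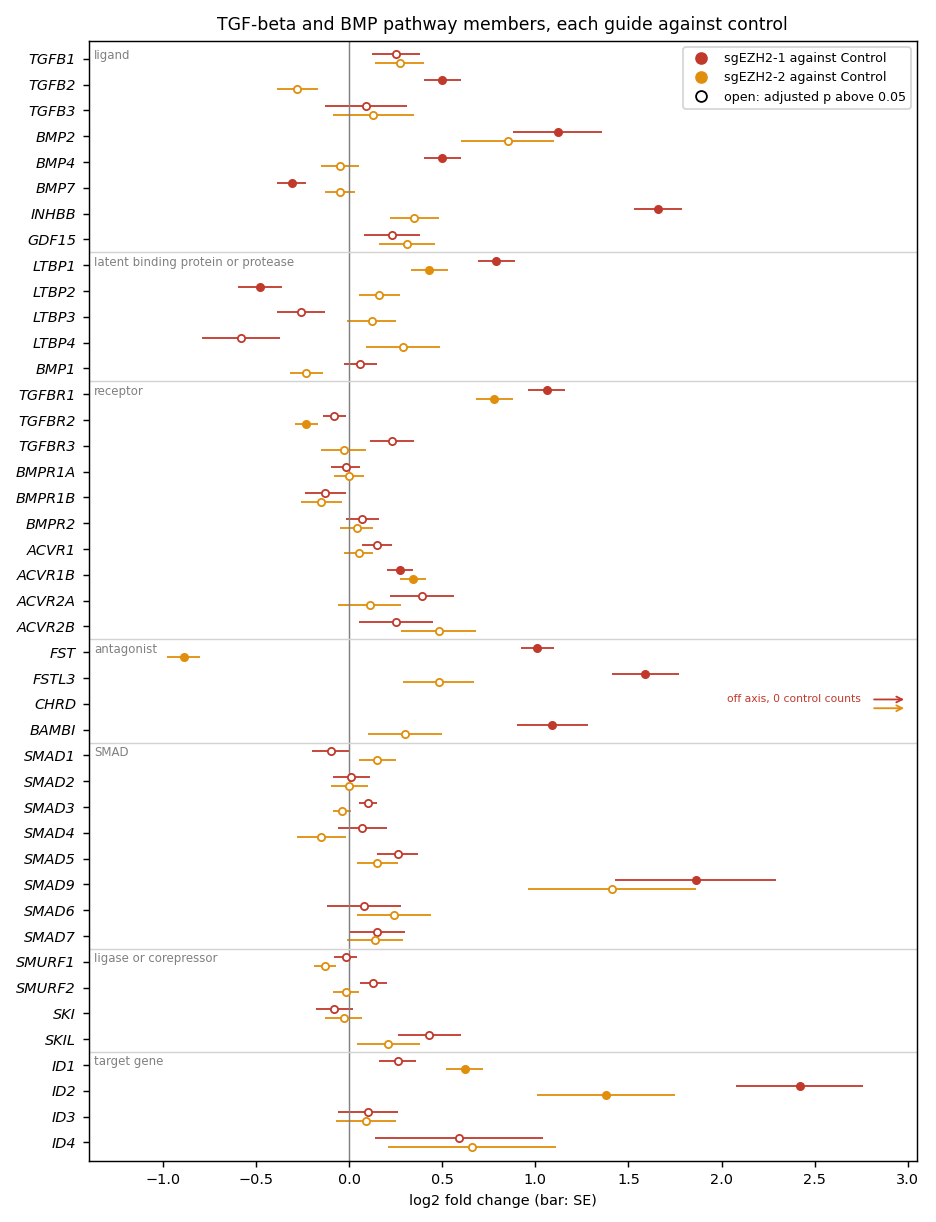
Log2 fold change against Control (x axis) of each of the 43 tested members, by role (rows), with sgEZH2-1 and with sgEZH2-2; horizontal bars are standard errors, filled symbols have an adjusted p of at most 0.05, and CHRD lies off the axis because both controls had 0 counts. FST stands at 1.01 with sgEZH2-1 and at -0.89 with sgEZH2-2, while TGFBR1 stands at 1.06 and 0.78.

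**Figure D2:**
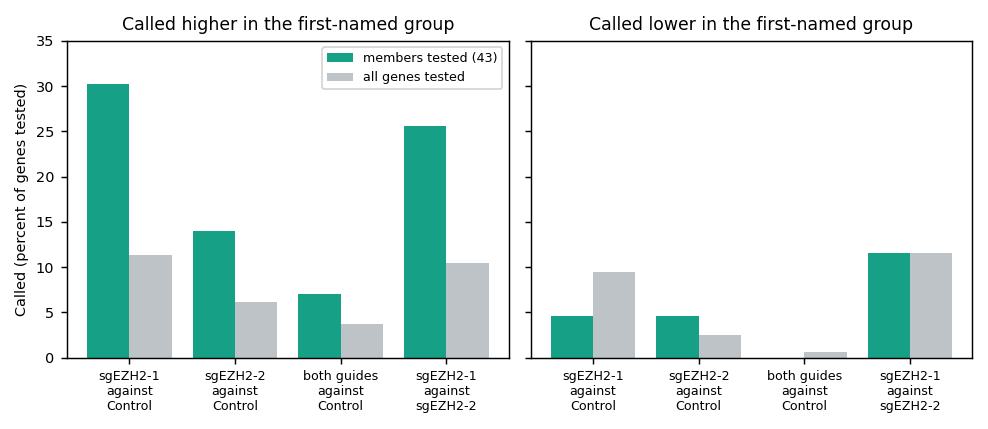
Share of the 43 tested members and of all 13124 genes tested (y axis, percent) called higher or lower in each of the 4 comparisons. With sgEZH2-1 against Control, 30.2% of the members were called higher beside 11.3% of all genes.

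Among the ligands, 4 of the 8 tested were higher with sgEZH2-1 (TGFB2, BMP2, BMP4 and INHBB), 1 was lower (BMP7), and 0 were called with sgEZH2-2, beside the 11.3% and 9.51% of all genes called higher and lower with sgEZH2-1 and the 6.18% and 2.50% with sgEZH2-2. With sgEZH2-2, DESeq2 called 0 ligands as well, and 3 had an unadjusted p under 0.05 in edgeR (2 higher, 1 lower). INHBB (chromosome 2, 120346143 to 120351808, plus strand), which encodes the beta B subunit of activin B and inhibin B, was at 45.0, 47.4 and 52.9 CPM with sgEZH2-1, at 20.3, 19.1 and 18.8 CPM with sgEZH2-2, and at 17.8 and 12.9 CPM in Control. The sgEZH2-1 libraries stood far above all others, and the sgEZH2-2 libraries stood just above both controls. INHBB rose with sgEZH2-1 by a log2 fold change of 1.66 (SE 0.13, adjusted p = 1.83e-05), and with sgEZH2-2 the value was 0.35 (SE 0.13, adjusted p = 0.149). Without the first control that last value was 0.60 (adjusted p = 0.0318). In RNA of whole cultures, more cells with a transcript and more transcript per cell cannot be told apart. Per kilobase of exon, INHBB was at 15.1 CPM with sgEZH2-1 and 4.79 CPM in Control.

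TGFB2, 1 of the TGF-beta isoforms, was at 66.7, 76.1 and 75.1 CPM with sgEZH2-1, at 46.8, 41.1 and 38.7 CPM with sgEZH2-2, and at 46.7 and 55.9 CPM in Control. The sgEZH2-1 libraries were above every other library, and the sgEZH2-2 libraries overlapped the controls. Its log2 fold change against Control was 0.50 (SE 0.10, adjusted p = 0.00741) with sgEZH2-1 and -0.28 (SE 0.11, adjusted p = 0.138) with sgEZH2-2. BMP4, a BMP that acts in skin and many other organs during development, was at 33.3, 34.8 and 34.0 CPM with sgEZH2-1, at 20.7, 23.6 and 25.5 CPM with sgEZH2-2, and at 25.5 and 22.6 CPM in Control. Here too only the sgEZH2-1 libraries stood apart: the log2 fold change was 0.50 (SE 0.10, adjusted p = 0.00509) with sgEZH2-1 and -0.05 (SE 0.10, adjusted p = 0.831) with sgEZH2-2. BMP2, a close relative of BMP4, was low, at 2.70, 3.15 and 3.01 CPM with sgEZH2-1, 2.55, 2.83 and 1.98 CPM with sgEZH2-2, and 1.35 and 1.37 CPM in Control. All guide libraries were above both controls, and the log2 fold change was 1.12 (SE 0.24, adjusted p = 0.00881) with sgEZH2-1 and 0.85 (SE 0.25, adjusted p = 0.0612) with sgEZH2-2. Without the first control the adjusted p with sgEZH2-1 was 0.0706 for TGFB2 and 0.0585 for BMP2.

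BMP7 was the ligand called lower. It was at 82.1, 92.6 and 95.6 CPM with sgEZH2-1, at 106, 109 and 109 CPM with sgEZH2-2, and at 120 and 103 CPM in Control. The sgEZH2-1 libraries were below the rest, by a log2 fold change of -0.31 against Control (SE 0.08, adjusted p = 0.0218), and sgEZH2-2 was at -0.05 (SE 0.08, adjusted p = 0.775). That BMP7 call was lost without the first control (log2 fold change -0.19, adjusted p = 0.200) and without the second sgEZH2-1 library (adjusted p = 0.0507), and in a fit of only the groups compared. TGFB1, the TGF-beta isoform most studied in carcinoma, averaged 22.3 ± 2.65 CPM with sgEZH2-1, 22.7 ± 2.66 CPM with sgEZH2-2 (SD, n = 3 each) and 18.8 ± 1.04 CPM in Control (SD, n = 2). It was not called in any comparison, and nor were TGFB3 (means of 2.57, 2.65 and 2.42 CPM in the same order) and the stress-induced ligand GDF15 (means of 84.4, 89.5 and 72.1 CPM). A stretch of 215 bases of TGFB1 exon overlaps HNRNPUL1 on the other strand, so its reads are uncertain where the counting did not use strand.

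The remaining ligands were near the limit of detection. BMP6 had 6, 10 and 5 counts with sgEZH2-1, 5, 2 and 2 counts with sgEZH2-2, and 0 and 1 count in Control, a ratio to Control of 14.8 (95% counting interval 2.37 to 610) with sgEZH2-1 and 6.57 (0.910 to 288) with sgEZH2-2. INHBA, the beta A subunit of activin A, had 2, 7 and 4 counts with sgEZH2-1, 1, 2 and 4 counts with sgEZH2-2, and 2 and 2 counts in Control. Its ratio to Control was 2.28 (0.706 to 9.62) with sgEZH2-1 and 1.28 (0.325 to 5.95) with sgEZH2-2, so no difference was detectable at this depth. These intervals cover counting error only, since reads are not independent molecules.

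**Figure D3:**
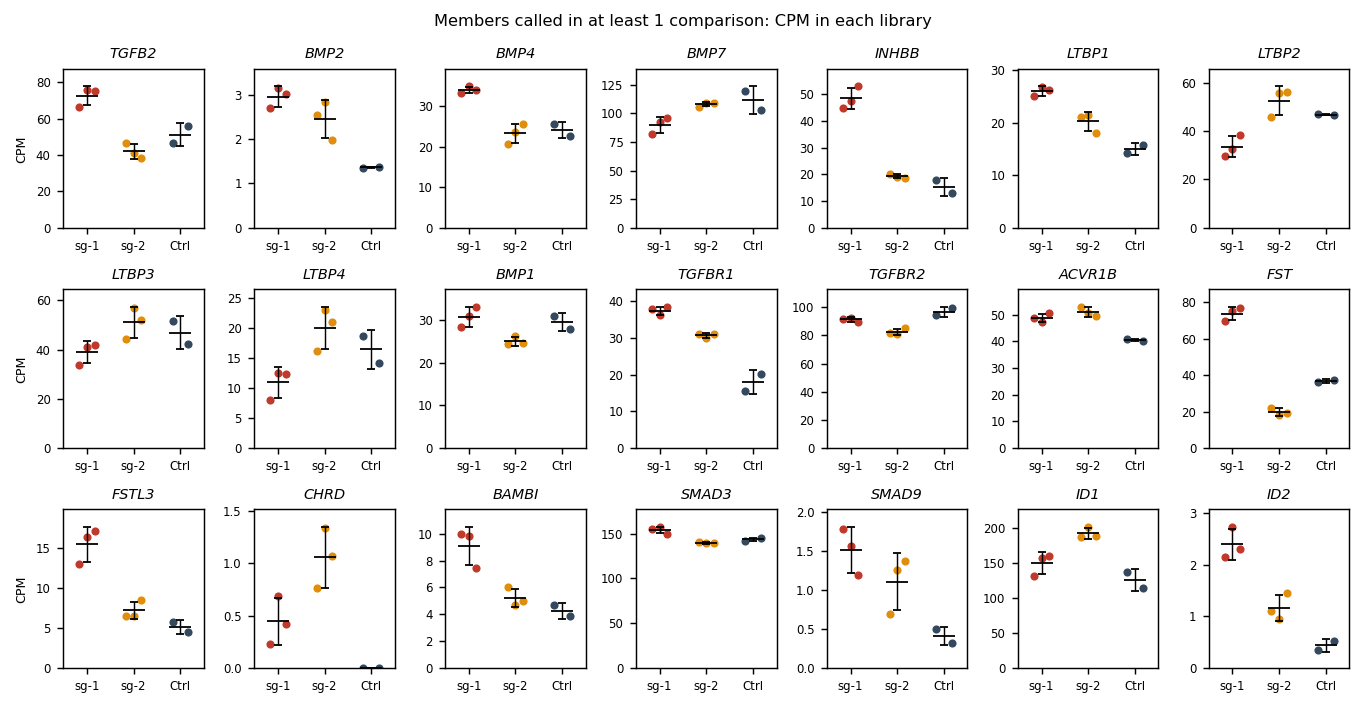
Level in CPM (y axis, from 0) of the 21 members called in at least 1 of the 4 comparisons, in each sgEZH2-1 (sg-1), sgEZH2-2 (sg-2) and Control (Ctrl) library; points are libraries and lines with bars are means with SD. INHBB, FST and FSTL3 are highest in all 3 sgEZH2-1 libraries, and TGFBR1 is lowest in both Control libraries.

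Latent TGF-beta binding proteins anchor the latent growth factor in the matrix. LTBP1 rose with both guides, while LTBP2 fell with sgEZH2-1. LTBP1 was at 25.0, 26.7 and 26.2 CPM with sgEZH2-1, at 21.1, 21.4 and 18.1 CPM with sgEZH2-2, and at 14.2 and 15.8 CPM in Control, so that the 3 groups did not overlap. Its log2 fold change was 0.79 (SE 0.10, adjusted p = 4.25e-04) with sgEZH2-1 and 0.43 (SE 0.10, adjusted p = 0.0269) with sgEZH2-2. The sgEZH2-2 call of LTBP1 was lost in a fit of only the groups compared, without either control, and without the first or the second sgEZH2-2 library (adjusted p = 0.0634 to 0.161 over those libraries). LTBP2, a family member that does not bind latent TGF-beta, was at 29.7, 32.6 and 38.2 CPM with sgEZH2-1, at 45.7, 55.6 and 56.3 CPM with sgEZH2-2, and at 46.9 and 46.8 CPM in Control. The sgEZH2-1 libraries were below all others, with a log2 fold change against Control of -0.48 (SE 0.12, adjusted p = 0.0152), and sgEZH2-2 was at 0.16 (SE 0.11, adjusted p = 0.452). Without either control or the second sgEZH2-1 library the adjusted p of LTBP2 was 0.0548 to 0.0778.

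LTBP3 was at 33.8, 41.2 and 42.0 CPM with sgEZH2-1, at 44.5, 57.1 and 51.9 CPM with sgEZH2-2, and at 51.6 and 42.3 CPM in Control. LTBP4 was at 7.96, 12.6 and 12.3 CPM with sgEZH2-1, at 16.2, 23.0 and 21.1 CPM with sgEZH2-2, and at 18.7 and 14.2 CPM in Control. For both genes the sgEZH2-1 libraries were below the controls and the sgEZH2-2 libraries overlapped them, and neither guide was called against Control (lowest adjusted p = 0.0790, for LTBP4 with sgEZH2-1). BMP1, the protease that trims procollagens and also cleaves chordin, was at 28.3, 30.9 and 33.1 CPM with sgEZH2-1, at 24.3, 26.2 and 24.6 CPM with sgEZH2-2, and at 31.0 and 28.0 CPM in Control. Only the sgEZH2-2 libraries were clear of the controls, with a log2 fold change of -0.23 that was not called (SE 0.09, adjusted p = 0.150).

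Of the 10 receptors, TGFBR1 and ACVR1B were called higher with each guide, beside 11.3% of all genes with sgEZH2-1 and 6.18% with sgEZH2-2. TGFBR2 was called lower with sgEZH2-2, beside 2.50% of all genes, and 0 receptors were called lower with sgEZH2-1, beside 9.51%. TGFBR1 (chromosome 9, 99104038 to 99154192, plus strand), the type I receptor of TGF-beta, was at 37.8, 36.3 and 38.4 CPM with sgEZH2-1, at 31.1, 30.0 and 31.1 CPM with sgEZH2-2, and at 15.6 and 20.2 CPM in Control. The guide libraries lay well above both controls and close to each other within each guide. TGFBR1 rose by a log2 fold change of 1.06 (SE 0.10, adjusted p = 8.55e-05) with sgEZH2-1 and 0.78 (SE 0.10, adjusted p = 0.00121) with sgEZH2-2, and the joint comparison gave 0.93 (SE 0.14, adjusted p = 0.00462). Without the first control the joint value was 0.76 (adjusted p = 0.0839), whereas each guide's own call held without any 1 library.

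ACVR1B, a type I receptor of activins, was at 48.7, 47.5 and 50.6 CPM with sgEZH2-1, at 53.1, 50.7 and 49.6 CPM with sgEZH2-2, and at 40.8 and 40.2 CPM in Control. The shift was small but the spread was smaller still: 0.27 (SE 0.07, adjusted p = 0.0158) with sgEZH2-1, 0.34 (SE 0.07, adjusted p = 0.0112) with sgEZH2-2 and 0.30 (SE 0.07, adjusted p = 0.0382) for both. Without either control the call of ACVR1B was lost for sgEZH2-1 (adjusted p = 0.0685 and 0.0619) and for sgEZH2-2 (adjusted p = 0.0592 and 0.0697). For both guides together it was lost under 6 of the 8 leave-1-out fits (up to adjusted p = 0.241) and with no filter. TGFBR2, the type II receptor of TGF-beta, was at 92.0, 92.7 and 89.5 CPM with sgEZH2-1, at 82.0, 81.0 and 85.1 CPM with sgEZH2-2, and at 94.2 and 99.4 CPM in Control. Every guide library was below both controls, with a log2 fold change of -0.08 (SE 0.06, adjusted p = 0.327) with sgEZH2-1 and -0.23 (SE 0.06, adjusted p = 0.0334) with sgEZH2-2. That call was lost in a fit of only the groups compared and when any of 7 libraries was left out (adjusted p = 0.0571 to 0.160 over those libraries).

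The BMP receptor genes BMPR1A, BMPR1B and BMPR2, the type I receptor gene ACVR1, the activin type II receptor genes ACVR2A and ACVR2B, and the coreceptor gene TGFBR3 (betaglycan) were not called in any comparison with all libraries. BMPR2 was at 60.0 ± 4.15 CPM with sgEZH2-1, 58.8 ± 2.47 CPM with sgEZH2-2 (SD, n = 3 each) and 57.1 ± 6.56 CPM in Control (SD, n = 2). ACVR2A was at 8.71 ± 1.37, 7.18 ± 1.01 and 6.63 ± 0.0635 CPM in the same groups. Leaving out 1 library made a pair of these genes called with sgEZH2-1: TGFBR3 without the second control (0.44, adjusted p = 0.0434, and 0.23 with all libraries) and ACVR2A without library 3 of sgEZH2-1 (0.53, adjusted p = 0.0487, and 0.39 with all libraries). BMPR1B was at 13.5 ± 0.884, 13.3 ± 1.38 and 14.8 ± 0.0751 CPM. ACVR2A shares 430 bases of exon with ORC4 on the other strand, and its count is uncertain for the same reason as that of TGFB1.

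The antagonists bind ligands outside the cell or block receptors at its surface. FST (chromosome 5, 53480409 to 53487134, plus strand) encodes follistatin, which binds and neutralises activins. It was at 69.6, 75.0 and 76.9 CPM with sgEZH2-1, at 22.0, 18.2 and 19.1 CPM with sgEZH2-2, and at 36.0 and 37.4 CPM in Control. The controls lay between the guides, and the 3 groups did not overlap. FST rose with sgEZH2-1 by a log2 fold change of 1.01 (SE 0.09, adjusted p = 3.25e-05) and fell with sgEZH2-2 (log2 fold change -0.89, SE 0.09, adjusted p = 2.33e-04), and both calls held under every alternative run. FSTL3 (chromosome 19, 676365 to 683399, plus strand), a follistatin relative that also binds activins, was at 13.0, 16.3 and 17.1 CPM with sgEZH2-1, at 6.56, 6.53 and 8.47 CPM with sgEZH2-2, and at 5.75 and 4.56 CPM in Control. All guide libraries were above both controls and the sgEZH2-1 libraries were highest, with log2 fold changes of 1.59 (SE 0.18, adjusted p = 2.21e-04) with sgEZH2-1 and 0.48 (SE 0.19, adjusted p = 0.163) with sgEZH2-2.

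BAMBI, a membrane decoy that resembles a type I receptor without its kinase, was at 9.96, 9.85 and 7.42 CPM with sgEZH2-1, at 6.01, 4.72 and 4.96 CPM with sgEZH2-2, and at 4.69 and 3.85 CPM in Control. The sgEZH2-1 libraries were highest, and the sgEZH2-2 libraries were just above both controls. BAMBI rose with sgEZH2-1 by a log2 fold change of 1.09 (SE 0.19, adjusted p = 0.00260), and with sgEZH2-2 the value was 0.30 (SE 0.20, adjusted p = 0.415). CHRD (chromosome 3, 184380073 to 184390736, plus strand), which encodes the BMP antagonist chordin, had 3, 10 and 6 counts with sgEZH2-1, 11, 17 and 14 counts with sgEZH2-2, and 0 and 0 counts in Control. The gene was detected in every guide library and in no control. Against a floor of 3 counts over both controls in place of 0, its level was 4.45-fold higher with sgEZH2-1 and 10.2-fold higher with sgEZH2-2. The floor leaves out the counting error of the guide counts, so these folds are not strict lower limits, and they were not tested. In edgeR's test of any difference from Control the adjusted p was 0.0143 with sgEZH2-1 and 0.00468 with sgEZH2-2. The sgEZH2-1 call of CHRD was lost without either control (adjusted p = 0.0688 and 0.0542), while that of sgEZH2-2 held without any 1 library. For both guides together (adjusted p = 0.0403) it was lost without either control (adjusted p = 0.232 and 0.215) and without 3 of the guide libraries (adjusted p = 0.0639 to 0.0712). CHRD exons overlap exons of THPO on the other strand over 361 bases, so its few reads are uncertain where the counting did not use strand.

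NOG (noggin) is another BMP antagonist. It had 1, 2 and 4 counts with sgEZH2-1, 1, 1 and 0 counts with sgEZH2-2, and 0 and 0 counts in Control. Against the same floor that is 1.64-fold higher with sgEZH2-1, again without the counting error of the guide counts. The counts with sgEZH2-2 were too few for a fold. GREM1, which encodes the BMP antagonist gremlin 1, had 2, 1 and 2 counts with sgEZH2-1, 1, 4 and 3 counts with sgEZH2-2, and 1 and 3 counts in Control. Its ratio to Control was 0.879 (95% counting interval 0.189 to 4.43) with sgEZH2-1 and 1.46 (0.391 to 6.62) with sgEZH2-2. Of the 6 antagonists, 4 were tested and all 4 were called higher with sgEZH2-1, beside 11.3% of all genes tested. With sgEZH2-2, 1 was called higher (CHRD) and 1 lower (FST), beside 6.18% and 2.50% of all genes. CHRD passed the filter only through the sgEZH2-2 libraries, and a fit of only sgEZH2-1 and Control did not test it.

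Of the 8 SMAD genes, 1 was called against Control, SMAD9 with sgEZH2-1, a share near the 11.3% of all genes called higher. With sgEZH2-1 0 were called lower, beside 9.51% of all genes. With sgEZH2-2 0 were called by edgeR or DESeq2, beside 6.18% of all genes higher and 2.50% lower. SMAD9 had both controls under the filter level and passed it through the guide libraries. SMAD3, a receptor SMAD of TGF-beta and activins, was the most abundant SMAD gene per length, at 16.9 CPM per kilobase of exon with sgEZH2-1 and 15.7 in Control. Its level was 155, 157 and 150 CPM with sgEZH2-1, 141, 139 and 139 CPM with sgEZH2-2, and 142 and 145 CPM in Control, and neither guide was called against Control (log2 fold changes 0.10 and -0.04, adjusted p = 0.172 and 0.702). SMAD9, which encodes SMAD8, a receptor SMAD of BMPs, was at 1.78, 1.57 and 1.19 CPM with sgEZH2-1, at 0.690, 1.26 and 1.37 CPM with sgEZH2-2, and at 0.497 and 0.326 CPM in Control. Every guide library was above both controls, with a log2 fold change of 1.86 (SE 0.43, adjusted p = 0.0123) with sgEZH2-1 and 1.41 (SE 0.45, adjusted p = 0.0853) with sgEZH2-2. Without the second control the sgEZH2-1 value of SMAD9 was 1.58 (adjusted p = 0.0808), and without the first sgEZH2-2 library the sgEZH2-2 value was 1.68 (adjusted p = 0.0489).

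The receptor SMAD genes SMAD1, SMAD2 and SMAD5, the common partner SMAD4, and the inhibitory SMADs SMAD6 and SMAD7 were not called in any comparison with all libraries. Without the second control SMAD5 was at 0.46 with sgEZH2-1 (adjusted p = 0.0232), against 0.26 with all libraries. SMAD1 was called lower with sgEZH2-1 than with sgEZH2-2 without either control or without the first sgEZH2-1 library (-0.31 to -0.25, adjusted p = 0.0398 to 0.0447), and in a fit of those guides alone (adjusted p = 0.0425). SMAD7, a feedback inhibitor that TGF-beta itself induces, averaged 5.28 ± 0.220 CPM with sgEZH2-1, 5.24 ± 0.197 CPM with sgEZH2-2 (SD, n = 3 each) and 4.74 ± 0.483 CPM in Control (SD, n = 2). SMAD6, the inhibitor tied more to BMP signalling, averaged 4.10, 4.60 and 3.90 CPM, and SMAD4 averaged 7.74, 6.65 and 7.37 CPM, in the same order. SMAD2 stood at 61.6 CPM with sgEZH2-1, 60.9 CPM with sgEZH2-2 and 60.9 CPM in Control. SMAD4 shares 967 bases of exon with AC091551.1 on its own strand, so its count is uncertain.

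The ubiquitin ligase genes SMURF1 and SMURF2, whose products mark receptors and SMADs for degradation, and the SMAD corepressor genes SKI and SKIL were not called in any comparison. SMURF1 shares 735 bases of exon with TRRAP and SMURF2 167 bases with CEP95, both on the other strand, so their counts are uncertain. SKIL was at 48.5 ± 3.73 CPM with sgEZH2-1, 41.6 ± 8.38 CPM with sgEZH2-2 (SD, n = 3 each) and 36.0 ± 8.07 CPM in Control (SD, n = 2). Its log2 fold change reached 0.43 with sgEZH2-1 (adjusted p = 0.0949), and SKIL was called without the second control (0.68, adjusted p = 0.0391) and without the first sgEZH2-2 library (0.44, adjusted p = 0.0376). Over all 22 tested members that were called in no comparison, the log2 fold change ran from -0.13 to 0.59 with sgEZH2-1 against Control, from -0.15 to 0.66 with sgEZH2-2 and from -0.14 to 0.63 with both guides. ID4, at about 1 CPM, gave the upper end of all 3 ranges. A p above the threshold does not show that these genes were the same in all groups.

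The ID genes encode inhibitors of bHLH transcription factors and are direct targets of BMP receptor SMADs. ID1 (chromosome 20, 31605283 to 31606515, plus strand) was the most abundant member per length, at 122 CPM per kilobase of exon with sgEZH2-1 and 102 in Control. ID1 was at 132, 158 and 160 CPM with sgEZH2-1, at 188, 202 and 189 CPM with sgEZH2-2, and at 137 and 115 CPM in Control. The sgEZH2-2 libraries were highest, and the sgEZH2-1 libraries overlapped the controls. ID1 rose with sgEZH2-2 by a log2 fold change of 0.62 (SE 0.10, adjusted p = 0.00282), and with sgEZH2-1 the value was 0.26 (SE 0.10, adjusted p = 0.0806). Without the first control the sgEZH2-1 value of ID1 was 0.39 (adjusted p = 0.0432), and without the first sgEZH2-1 library it was 0.34 (adjusted p = 0.0139).

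ID2 showed the opposite order of the guides. It was at 2.16, 2.74 and 2.31 CPM with sgEZH2-1, at 1.10, 0.944 and 1.45 CPM with sgEZH2-2, and at 0.355 and 0.522 CPM in Control, and the 3 groups did not overlap. ID2 rose by a log2 fold change of 2.42 (SE 0.34, adjusted p = 7.46e-04) with sgEZH2-1 and 1.38 (SE 0.37, adjusted p = 0.0464) with sgEZH2-2. The second of these calls was lost when any of 7 libraries was left out (adjusted p = 0.0625 to 0.230), with DESeq2 (adjusted p = 0.157), with no filter (adjusted p = 0.0537) and in a fit of only the groups compared (adjusted p = 0.0750). ID3 averaged 40.7 ± 8.11 CPM with sgEZH2-1, 40.6 ± 5.91 CPM with sgEZH2-2 (SD, n = 3 each) and 38.0 ± 3.01 CPM in Control (SD, n = 2) and was not called. ID4 was at 0.968, 1.03 and 0.637 CPM in the same order and was not called either.

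Set directly against each other, the guides differed in 16 of the 43 tested members: 11 were higher with sgEZH2-1 than with sgEZH2-2 (25.6%) and 5 were lower (11.6%), beside 10.4% and 11.5% of all genes tested. Those counts were 6 and 3 without the second sgEZH2-1 library, 7 and 2 without the second sgEZH2-2 library, and 7 and 3 without sgEZH2-2 library 3. Over all genes tested, 2874 were called in either direction with all libraries, and 1691, 1521 and 1572 in those fits, in the same order. The median log2 difference of the members was 0.09, and that of all genes tested was -0.01. FST showed the largest difference among the tested members, 1.90 (SE 0.08, adjusted p = 2.78e-06), with opposite directions against Control. INHBB differed by 1.32 (SE 0.11, adjusted p = 4.89e-05), FSTL3 by 1.11 (SE 0.15, adjusted p = 8.94e-04), BAMBI by 0.79 (SE 0.16, adjusted p = 0.00750), TGFB2 by 0.78 (SE 0.09, adjusted p = 4.08e-04) and BMP4 by 0.55 (SE 0.09, adjusted p = 0.00200). INHBB encodes a subunit of activin B, and FST and FSTL3 encode activin-binding antagonists. These 6 calls held under every alternative run.

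The members lower with sgEZH2-1 than with sgEZH2-2 were LTBP4 (log2 fold change -0.87, SE 0.19, adjusted p = 0.0100), LTBP2 (-0.65, SE 0.11, adjusted p = 0.00226), LTBP3 (-0.39, SE 0.12, adjusted p = 0.0386), ID1 (-0.36, SE 0.08, adjusted p = 0.0131) and BMP7 (-0.26, SE 0.07, adjusted p = 0.0286). Of the 4 latent binding protein genes, 3 were therefore lower with sgEZH2-1, while LTBP1 was higher (0.36, SE 0.09, adjusted p = 0.0143). Also higher with sgEZH2-1 than with sgEZH2-2 were ID2 (1.04, SE 0.25, adjusted p = 0.0157), BMP1 (0.30, SE 0.08, adjusted p = 0.0256), TGFBR1 (0.28, SE 0.09, adjusted p = 0.0418) and SMAD3 (0.14, SE 0.04, adjusted p = 0.0446). DESeq2 did not call TGFBR1, SMAD3 or ID2 here, and SMAD3 was not called without the filter. The calls of LTBP3, BMP7, BMP1, TGFBR1 and SMAD3 were each lost when any 1 of 4 to 7 libraries was left out, with adjusted p up to 0.145 for LTBP3, 0.0893 for BMP7, 0.0889 for BMP1, 0.130 for TGFBR1 and 0.166 for SMAD3. Leaving out the second library of sgEZH2-2 ended the calls of ID1 (adjusted p = 0.0563) and ID2 (adjusted p = 0.0663). Leaving out the second sgEZH2-1 library ended those of LTBP1 (adjusted p = 0.0578) and ID2 (adjusted p = 0.0652), and leaving out the third sgEZH2-2 library that of LTBP1 (adjusted p = 0.0636).

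A further 82 genes of the pathway outside the 47 members, in 5 lists, held 50 that were tested. With sgEZH2-1 against Control 9 of the 50 were called higher and 4 lower, beside 11.3% and 9.51% of all genes tested. With sgEZH2-2 the 7 called of 50 were all higher, beside 6.18% of all genes called higher, as were the 3 of 50 called with both guides, beside 3.76%. Between the guides 9 of the 50 were higher with sgEZH2-1 and 8 lower, beside 10.4% and 11.5% of all genes. Of the 13 tested target genes, 3 were called higher and 3 lower with sgEZH2-1, and 4 were called higher with sgEZH2-2, beside the same shares of all genes. PMEPA1, a TGF-beta target that feeds back on the SMADs, was at 32.2, 42.6 and 44.5 CPM with sgEZH2-1, at 22.4, 22.7 and 23.1 CPM with sgEZH2-2, and at 15.2 and 16.3 CPM in Control. It rose with sgEZH2-1 (log2 fold change 1.34, SE 0.13, adjusted p = 9.47e-05) and with sgEZH2-2 (0.53, SE 0.14, adjusted p = 0.0380), the second of which was lost without either control or any 1 of the sgEZH2-2 libraries (adjusted p up to 0.174). MSX2, a homeobox gene that BMPs induce, was at 9.42, 7.87 and 8.33 CPM with sgEZH2-1, at 6.97, 7.32 and 7.63 CPM with sgEZH2-2, and at 4.12 and 4.37 CPM in Control. The log2 fold change of MSX2 was 1.00 (SE 0.14, adjusted p = 7.86e-04) with sgEZH2-1, 0.78 (SE 0.14, adjusted p = 0.00804) with sgEZH2-2 and 0.90 (SE 0.16, adjusted p = 0.00994) with both, and without the first control the sgEZH2-2 call was lost (adjusted p = 0.0691). The joint call of MSX2 was lost without either control (adjusted p up to 0.139).

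SNAI2, which encodes the transcription factor SLUG, was at 16.3, 16.8 and 16.2 CPM with sgEZH2-1, at 23.5, 19.9 and 23.0 CPM with sgEZH2-2, and at 21.5 and 23.0 CPM in Control. The sgEZH2-1 libraries were below all others, and the sgEZH2-2 libraries overlapped the controls. SNAI2 fell with sgEZH2-1 (log2 fold change -0.44, SE 0.09, adjusted p = 0.00827), was at -0.01 with sgEZH2-2 (SE 0.09, adjusted p = 0.976), and was lower with sgEZH2-1 than with sgEZH2-2 (-0.43, SE 0.08, adjusted p = 0.00613). Without the second control its sgEZH2-1 call was lost (adjusted p = 0.0506). CCN2, a matricellular protein gene that TGF-beta induces, was at 231, 252 and 232 CPM with sgEZH2-1, at 354, 288 and 365 CPM with sgEZH2-2, and at 217 and 203 CPM in Control. The sgEZH2-2 libraries were highest: the log2 fold change was 0.18 (SE 0.09, adjusted p = 0.196) with sgEZH2-1, 0.68 (SE 0.09, adjusted p = 0.00154) with sgEZH2-2, and -0.49 for sgEZH2-1 against sgEZH2-2 (SE 0.08, adjusted p = 0.00268). HEY1, a bHLH repressor gene that BMPs and NOTCH induce, was at 4.25, 3.35 and 2.31 CPM with sgEZH2-1, at 8.15, 7.87 and 8.77 CPM with sgEZH2-2, and at 4.97 and 5.61 CPM in Control. The controls lay between the guides, and HEY1 was lower with sgEZH2-1 than with sgEZH2-2 by a log2 fold change of -1.33 (SE 0.19, adjusted p = 0.00113). Against Control it was at -0.69 with sgEZH2-1 (SE 0.22, adjusted p = 0.0485), a call lost with DESeq2, in a fit of only the groups compared and when any of 7 libraries was left out (adjusted p up to 0.178), and at 0.64 with sgEZH2-2 (SE 0.20, adjusted p = 0.0799), which was called without the first sgEZH2-1 library (adjusted p = 0.0358), without sgEZH2-1 library 3 (adjusted p = 0.0350) and in a fit of only the groups compared (adjusted p = 0.0279).

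Among the other extracellular regulators, 2 were called higher and 1 lower with sgEZH2-1 of the 12 tested, and 1 was higher with sgEZH2-2, shares near those of all genes (11.3%, 9.51% and 6.18%). FSTL1, a follistatin-like secreted protein that binds BMPs, was at 181, 177 and 169 CPM with sgEZH2-1, at 121, 125 and 120 CPM with sgEZH2-2, and at 94.9 and 99.1 CPM in Control. The 3 groups were far apart relative to their spread, with log2 fold changes of 0.86 (SE 0.06, adjusted p = 6.37e-06) with sgEZH2-1 and 0.33 (SE 0.06, adjusted p = 0.00461) with sgEZH2-2. CRIM1, a membrane protein that binds BMPs, rose with sgEZH2-1 by 0.28 (SE 0.05, adjusted p = 0.00235). It was at -0.11 with sgEZH2-2 (SE 0.05, adjusted p = 0.203). SOSTDC1, a secreted BMP and WNT antagonist, had 2, 1 and 5 counts with sgEZH2-1, 10, 8 and 6 counts with sgEZH2-2, and 14 and 8 counts in Control. Its log2 fold change was -1.92 with sgEZH2-1 (SE 0.59, adjusted p = 0.0426). Only 7 of the 12 alternatives gave a result for SOSTDC1 here, and the call was lost in 5 of them. Those were DESeq2, no filter, and leaving out the first sgEZH2-1 library, the second of sgEZH2-2 or the third of sgEZH2-2 (adjusted p up to 0.0868 without 1 library). ITGB8, an integrin subunit that activates latent TGF-beta, was at 74.9, 74.2 and 81.3 CPM with sgEZH2-1, at 57.4, 51.0 and 47.3 CPM with sgEZH2-2, and at 55.3 and 68.1 CPM in Control. It was higher with sgEZH2-1 than with sgEZH2-2 by 0.56 (SE 0.09, adjusted p = 0.00254). Against Control ITGB8 was at 0.31 with sgEZH2-1 (SE 0.10, adjusted p = 0.0564), a value called by DESeq2 (adjusted p = 0.0468), without the second control (0.47, adjusted p = 0.0214) and without the first sgEZH2-2 library (adjusted p = 0.0400).

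Of the other ligands, 6 of 23 were tested. GDF11, a relative of myostatin, was at 25.3, 27.1 and 22.8 CPM with sgEZH2-1, at 23.3, 26.7 and 26.8 CPM with sgEZH2-2, and at 19.7 and 16.6 CPM in Control. It rose with sgEZH2-1 (log2 fold change 0.46, SE 0.11, adjusted p = 0.0163), with sgEZH2-2 (0.49, SE 0.11, adjusted p = 0.0241) and with both (0.48, SE 0.11, adjusted p = 0.0367). Without the second control the GDF11 calls of both guides were lost (adjusted p = 0.110 with sgEZH2-1 and 0.159 with sgEZH2-2), as was that of sgEZH2-1 without its second library and that of sgEZH2-2 without its second library or the third, and the joint call was lost under 6 leave-1-out fits (adjusted p up to 0.315). BMP8B differed between the guides, by -0.74 (SE 0.17, adjusted p = 0.0131), which was lost without the second sgEZH2-2 library (adjusted p = 0.0571). Against Control BMP8B was at 0.69 with sgEZH2-2 (SE 0.19, adjusted p = 0.0514), a value called with no filter, in a fit of only the groups compared, and without the first sgEZH2-1 library or library 3 of sgEZH2-1 (adjusted p = 0.0402 to 0.0468). Of the other receptors, 3 of 9 were tested. ACVR1C, the type I receptor ALK7, was at 2.01, 1.30 and 1.05 CPM with sgEZH2-1, at 1.38, 0.865 and 1.83 CPM with sgEZH2-2, and at 0.355 and 0.130 CPM in Control, and it passed the filter through the guide libraries. It rose with sgEZH2-1 (log2 fold change 2.55, SE 0.56, adjusted p = 0.00998) and with sgEZH2-2 (2.47, SE 0.57, adjusted p = 0.0243), and without the second control the adjusted p was 0.0725 with sgEZH2-1. With sgEZH2-2 and with both guides the ACVR1C call was lost without either control, and with sgEZH2-2 also without its first library or the third (adjusted p up to 0.156 with sgEZH2-2 and 0.237 with both). RGMA, a BMP coreceptor and neogenin ligand, rose with sgEZH2-1 by 1.02 (SE 0.28, adjusted p = 0.0258), a call lost with DESeq2, in a fit of only the groups compared, and without the first control or the second sgEZH2-1 library (adjusted p up to 0.189).

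Of all genes tested, 11.3% were called higher and 9.51% lower with sgEZH2-1, and 6.18% and 2.50% with sgEZH2-2. Beside those shares, the 16 other intracellular regulators, all tested, were too few to read a low count of calls as a difference. Only USP15, a deubiquitinase of TGF-beta receptors and SMADs, was called among them with sgEZH2-1 against Control (log2 fold change 0.32, SE 0.08, adjusted p = 0.0150), a call lost without the first control (adjusted p = 0.134), and 0 were called with sgEZH2-2 by edgeR or DESeq2 (3 had an unadjusted p under 0.05 in edgeR, 1 higher and 2 lower). Between the guides USP15 differed by 0.29 (SE 0.07, adjusted p = 0.0132), the SMAD corepressor gene TGIF2 by -0.29 (SE 0.07, adjusted p = 0.0181) and STRAP, which binds SMAD7 and receptors, by 0.16 (SE 0.04, adjusted p = 0.0202). Without the second library of either guide these 3 calls were lost (adjusted p up to 0.0626 for USP15, 0.0798 for TGIF2 and 0.0816 for STRAP).

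**Figure D4:**
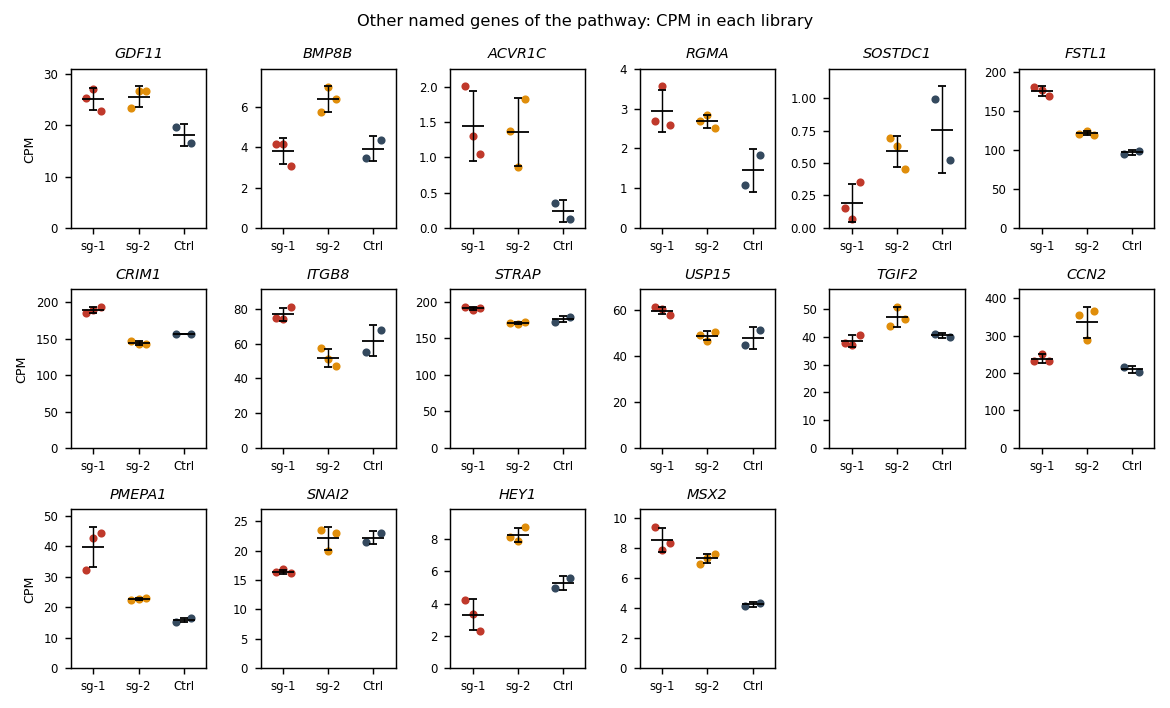
Level in CPM (y axis, from 0) of 16 pathway genes outside the 47 members that were named by the smallest adjusted p in their list, in each sgEZH2-1 (sg-1), sgEZH2-2 (sg-2) and Control (Ctrl) library; points are libraries and lines with bars are means with SD. CCN2 is highest in the 3 sgEZH2-2 libraries (288 to 365 CPM), while PMEPA1 is highest in the 3 sgEZH2-1 libraries (32.2 to 44.5 CPM).

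The promoter windows of the members were rich in CG compared with those of all genes tested, as a description with no test. Windows of 300 bases, 250 before and 50 after the RefSeq start, were matched by symbol for 42 of the 47 members (not SKI, NOG, BMP7, BMP2 and BMP1) and for 10352 of the 13124 genes tested. The median number of CG dinucleotides was 33.0 in the members (quartiles 23.0 and 39.8) and 26.0 in the genes tested (18.0 and 34.0). The 12 matched members among the 13 called higher with sgEZH2-1 had a median of 38.0, against 29.0 in 27 of the 30 other tested members, and the median G+C content was 78.7% in the first of these sets and 68.0% in the second. The motif GGCGCC, a GC-rich element that SMADs of the BMP branch can bind and which reads the same on both strands, was in 15 windows of the members (35.7%), beside 30.7% of the genes tested. It was in 6 of the 12 windows of the members called higher with sgEZH2-1 (50.0%) and in 8 of 27 of the others (29.6%), and the runs printed above hold 1 match before CHRD, 2 before INHBB and 1 before FSTL3. The palindrome GTCTAGAC, known as a binding site of SMAD3 and SMAD4, was in the window of 1 member, SMAD6 (2.38%), beside 0.164% of the genes tested. The sets differ in G+C content, which bears on how often such a motif occurs, and a match is not a bound site.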

How the data were processed

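The deposited table holds raw read counts for each gene in 1 column per library, not normalized by the authors. The submitters' processing notes name FastQC, STAR, DESeq and build hg38, and libraries followed the TruSeq Stranded mRNA protocol, per the labels. Versions, counter, annotation and strandedness of counting were not given in the sources used here. Columns carry their group and no replicate number, so libraries are called by their order in the table.

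A filter on low counts, filterByExpr of edgeR 4.0.16 (minimum count 10) in R 4.3.3, left 13124 genes. Counts were scaled by trimmed mean of M values and tested with edgeR's quasi-likelihood F test, two-sided, with Benjamini-Hochberg adjustment over all genes tested and a call at 0.05 or less. An adjusted p is edgeR's where no tool is named. Each guide against Control, and 1 guide against the other, were taken from a fit of 3 groups, and both guides against Control was a fit of 2 levels. Standard errors (SE) were derived from the F statistic. Totals of 12.6 M to 15.5 M counts set the precision, and intervals (exact, 95%) cover counting error only. The floor of 3 counts stands in for 0 control counts and leaves out the counting error of the guide counts. Coordinates and exon lengths are from GENCODE release 29. The code was tested on simulated counts with known changes. Alternatives were median-of-ratios size factors, DESeq2 1.42.0, no filter, the compared groups alone, the mean of both guides in the fit of 3 groups, and leaving out each library.

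All 47 members are reported, with values per library for those called in any comparison. From each of 5 lists of other pathway genes up to 3 called genes per comparison, those with the smallest adjusted p, were named. The other listed genes enter as counts only, and 2 genes first listed were left out. The members, lists and tests were chosen with earlier results of these data known.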

Additional observations from a re-analysis of the deposited data

Results flagged for a closer look

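The values given here are log2 fold changes of sgEZH2-1 against sgEZH2-2 with an adjusted p of at most 0.05 in edgeR, that is, the effect of 1 guide differed from that of the other in a test of the difference itself. The targeted gene itself was among them, with EZH2 lower by -0.36 with sgEZH2-1 than with sgEZH2-2 (adjusted p = 0.00844), so the guides also differ in the level of the EZH2 transcript. Whether the pathway genes follow that difference was not tested.

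Among the members, the ligand genes TGFB2, BMP4 and INHBB stood at 0.78, 0.55 and 1.32, and BMP7 at -0.26. LTBP1 was at 0.36, LTBP2 at -0.65, LTBP3 at -0.39, LTBP4 at -0.87 and BMP1 at 0.30. The receptor gene TGFBR1 was at 0.28, the antagonist genes FST, FSTL3 and BAMBI at 1.90, 1.11 and 0.79, and SMAD3 at 0.14. ID1 was at -0.36 and ID2 at 1.04, in opposite directions. FST is the member in which each guide was called against Control in an opposite direction.

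Among the other pathway genes, the secreted or membrane regulators FSTL1, CRIM1 and ITGB8 stood at 0.52, 0.39 and 0.56, and the ligand gene BMP8B at -0.74. The intracellular regulators USP15, STRAP and TGIF2 were at 0.29, 0.16 and -0.29. The target gene PMEPA1 was at 0.81, and SNAI2, CCN2 and HEY1 were at -0.43, -0.49 and -1.33. ID1 and CCN2 were therefore higher with sgEZH2-2, while ID2 and PMEPA1 were higher with sgEZH2-1.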

How the results depend on the processing

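Of the 42 calls of members over the 4 comparisons, 20 held under every alternative run, 22 were lost under at least 1, each of those without at least 1 library, and 0 changed direction. Of the 31 calls of other pathway genes named, 13 held, 18 were lost under at least 1 alternative and 0 changed direction. Median-of-ratios size factors moved the median of all genes by at most 0.006 on the log2 scale.

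With 1 library left out, the genes called ran from 1373 (without the first control) to 2591 with sgEZH2-1 against Control (2726 with all libraries), from 521 (without the first control) to 1365 with sgEZH2-2 (1139), from 145 (without the second control) to 509 with both guides (572), and from 1521 (without the second sgEZH2-2 library) to 2995 between the guides (2874). Members called higher ran from 10 to 14 with sgEZH2-1, from 3 to 6 with sgEZH2-2, from 0 (without the first control) to 4 with both guides and from 6 to 11 between the guides. Members called lower ran from 0 to 2, from 1 to 2, from 0 to 0 and from 2 to 6 in the same order. In fits of only the groups compared, 1 member was called lower with sgEZH2-1 and 1 with sgEZH2-2, instead of 2 each.

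The comparison of both guides also depended on the model. With the mean of both guides in the fit of 3 groups, 1612 genes were called in either direction instead of 572. Members called higher were 11 (25.6%) instead of 3 (6.98%), beside 7.70% of all genes called higher instead of 3.76%. DESeq2 called 5 members higher, and 813 genes in either direction. In the fit of 3 groups a difference between the guides does not count as spread. EZH2 was then called, at -0.46 (adjusted p = 0.00253), whereas in the fit of 2 levels it was at -0.45 (adjusted p = 0.113) and ran from -0.50 to -0.37 with 1 library left out. EZH2 ran from -0.68 to -0.55 with sgEZH2-1, from -0.32 to -0.24 with sgEZH2-2 and from -0.40 to -0.29 between the guides. The sgEZH2-2 value of EZH2 was called without the third sgEZH2-1 library (-0.26, adjusted p = 0.0473). The cause of these changes was not tested. No paired analysis was possible because the columns of the table carry no replicate numbers.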
